A study of Mus musculus with 6 samples.

Results

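The zinc transporter and metallothionein genes Slc39a1, Slc39a6, Slc39a7, Slc39a10, Slc39a13, Slc39a14, Slc30a1, Slc30a5, Mt1 and Mt2 were followed in cultured mouse adipocytes with and without overexpression of the microRNA miR-182. These 10 of the 22609 listed genes were chosen by results of the same comparison: Slc39a1 had the smallest p of all genes, and the others were added as relatives or zinc-responsive genes with that result known. Their fold changes are therefore a description, with standard errors and without p-values, and where members are said to pass a cutoff this describes the comparison that chose them and tests nothing. The question was whether relatives of Slc39a1, or genes that respond to zinc, moved with it.

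RNA was sequenced from 6 samples of primary inguinal white fat (iWAT) cultures, 3 labelled control and 3 labelled miR182. All cultures were grown from the stromal vascular fraction of subcutaneous fat of male C57BL6 mice, labelled as 3 weeks old, and were differentiated in dishes. The labels name a control vector and electroporation for the transfection, whereas the methods of the study describe a synthetic mimic, a mimic control, a lipid reagent and another age, so the agent in the miR182 samples is not settled by the sources. Both groups went through the same isolation, differentiation and transfection, and the labels do not say whether the 3 samples of a group came from separate mice or dishes, so p-values measure the spread between these samples, which may be technical.

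Zinc enters the cytosol through ZIP proteins, encoded by the Slc39a genes, either from outside the cell or out of internal stores, and leaves it through ZnT proteins, encoded by the Slc30a genes, either across the plasma membrane or into vesicles. Metallothioneins are small cysteine-rich proteins that bind zinc in the cytosol, and their genes are switched on by the zinc-sensing transcription factor MTF1, by glucocorticoids and by oxidative stress. A microRNA pairs through its seed, bases 2 to 8, with the 3′-UTR of an mRNA and lowers its level or translation. In fat, ZIP13 and ZIP14 have been linked to adipocyte development and metabolism.

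The sequences below show what miR-182 can pair with, and they are shown because Slc39a1 is the zinc gene with the most matches. RefSeq gives the mature strands on GRCm38.p6, miR-182-5p at chr6:30165962-30165986 on the minus strand and miR-96-5p, from the same cluster, at chr6:30169506-30169528 on the minus strand. Capitals mark the seed.
mmu-miR-182-5p: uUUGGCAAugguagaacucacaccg
mmu-miR-96-5p: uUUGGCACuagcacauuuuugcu
The miR-182-5p seed belongs to 1 name among the 1679 mature mouse names in the RefSeq table, so no other listed miRNA shares it in full. The miR-96-5p seed differs in its last base, and both pair with TGCCAAA, the match to bases 2 to 7 followed by an A.

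The 3′-UTR of Slc39a1, on chromosome 3 from 90248172 to 90253612 of GRCm38 for the whole gene, is 1270 bases long and holds 3 copies of TGCCAAA, at 487, 710 and 1103 bases from the stop codon. It holds 0 copies of TTGCCAA, the full match to bases 2 to 8. The 3 sites lie on the plus strand at chr3:90252829-90252835, chr3:90253052-90253058 and chr3:90253445-90253451, and are shown with capitals on the match.
Slc39a1 site at 487: taagggactagTGCCAAAtggtctctctgc
Slc39a1 site at 710: tgttgttaaagTGCCAAAtacccacccacc
Slc39a1 site at 1103: aaccaataaccTGCCAAAactttatatctg
The first and second sites are also full matches to bases 2 to 8 of miR-96-5p. Of 12501 tested genes with an annotated 3′-UTR, 1785 (14.3%) held at least 1 TGCCAAA and 49 (0.392%) held 3 or more. A match is a description of letters and not evidence of binding.

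Of the other members, 3 held 1 match each and 6 held none. Slc30a1 held TTGCCAA at 76 bases from the stop codon (chr1:191909831-191909837, plus strand), Slc39a14 held TTGCCAA at 1467 bases (chr14:70305193-70305199, minus strand), and Slc39a13 held TGCCAAA at 670 bases (chr2:91062227-91062233, minus strand).
Slc30a1: aaatactaagtTTGCCAAgtagtgtaattg
Slc39a14: gtactgaatcaTTGCCAAtccctgagtctt
Slc39a13: ccacctccagcTGCCAAAcagcagcctgca
TTGCCAA was present in 12.5% of the same 12501 genes. Slc30a1 was lower with miR182, and Slc39a14 and Slc39a13 were higher. Among family genes outside the 10, Slc39a9 and Slc30a9 each held TTGCCAAA, the match to bases 2 to 8 plus A, which 5.25% of genes held, with log2 fold changes of -0.44 and 0.26. Over all tested genes with a 3′-UTR, 24% were lower and 23.9% higher by the adjusted p. For genes with TTGCCAA these shares were 37% and 18.2%, and for genes with TGCCAAA 38.1% and 17.1%. They were 47.6% and 12.2% of the 656 genes with TTGCCAAA, and 59.2% and 2.04% of the 49 genes with 3 or more TGCCAAA. Slc39a1, chosen by its p, is among those 49, the sets overlap, and 3′-UTR length was not matched. Whether a match acted on any gene was not tested.

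**Figure D1:**
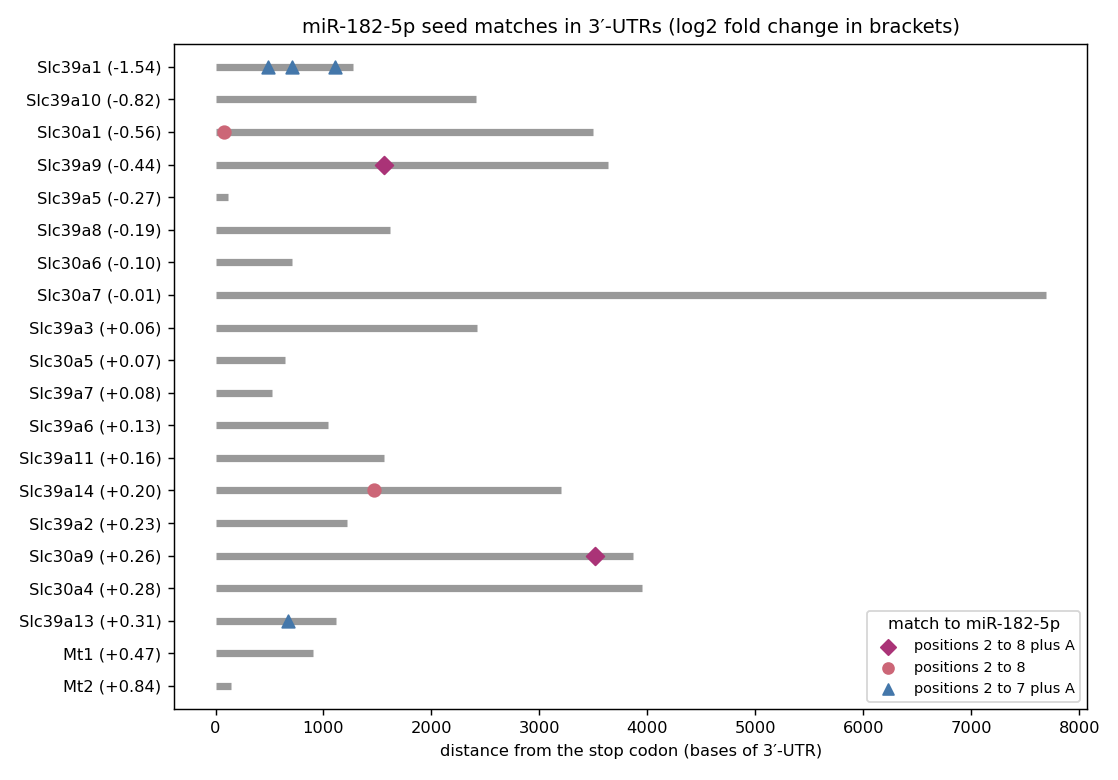
Grey lines show the 3′-UTR length of each zinc family gene tested, in bases from the stop codon, ordered by log2 fold change from the lowest (-1.54, top) to the highest (0.84, bottom), and symbols mark matches to miR-182-5p. Slc39a1 is the gene with 3 matches, and single matches lie in genes of both directions.

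The methods of the study print, for the miR-182-5p strand, letters that begin with the seed of the miR-30 family, GUAAACA, and not with that of RefSeq miR-182-5p. RefSeq mmu-miR-30a-5p is printed for comparison.
mmu-miR-30a-5p: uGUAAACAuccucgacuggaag
Its match, TGTTTAC, was present in 16.4% of 3′-UTRs. Among the 10 members it occurred once in Slc39a10 and once in Mt1 and in 0 copies in Slc39a1. The 3′-UTR searched for Mt1 was its longest annotated one, 901 bases. That is longer than the whole 549-base Mt1 transcript used for its level per kb below, and which form these cultures make was not measured. Mature miRNAs have no poly(A) tail and are not read by these libraries, and the listed Mir182, Mir96 and Mir183 genes had 0 reads in all 6 samples.

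Slc39a1 encodes ZIP1, a zinc importer of the plasma membrane found in most tissues. Its level was 142, 139 and 141 CPM (a share of the reads on genes, with library sizes scaled by edgeR's TMM method) in the control samples, and 49, 47.3 and 49.3 CPM with miR182. The groups lay 90 CPM apart, with SDs of 1.42 and 1.04 CPM within them (n = 3 each), and rest on 1247 to 3689 reads per sample. As the gene was chosen for its small p in this comparison, a wide gap beside a small spread was given by that choice. The level with miR182 was 34.4% of control, a log2 fold change of -1.54 (SE 0.032).

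Of the 10 members, 3 passed both cutoffs that the study states (an adjusted p under 0.05 and at least 1.5-fold), Slc39a1 and Slc39a10 lower and Mt2 higher. Over all 13117 genes tested in the same edgeR fit, 5.48% passed both cutoffs lower and 1.97% higher. By the adjusted p alone, 6 members were higher, 3 were lower and Slc30a5 did not pass, beside 23.2% of all genes higher and 23.5% lower. The samples of the groups did not overlap in 10 of 10 members, and did not overlap in 54.8% of all genes tested. Since this comparison chose the members, nothing is read from these counts. The median log2 fold change was 0.11 over the members and -0.00 over all genes, and the median size without sign was 0.39 and 0.16.

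**Figure D2:**
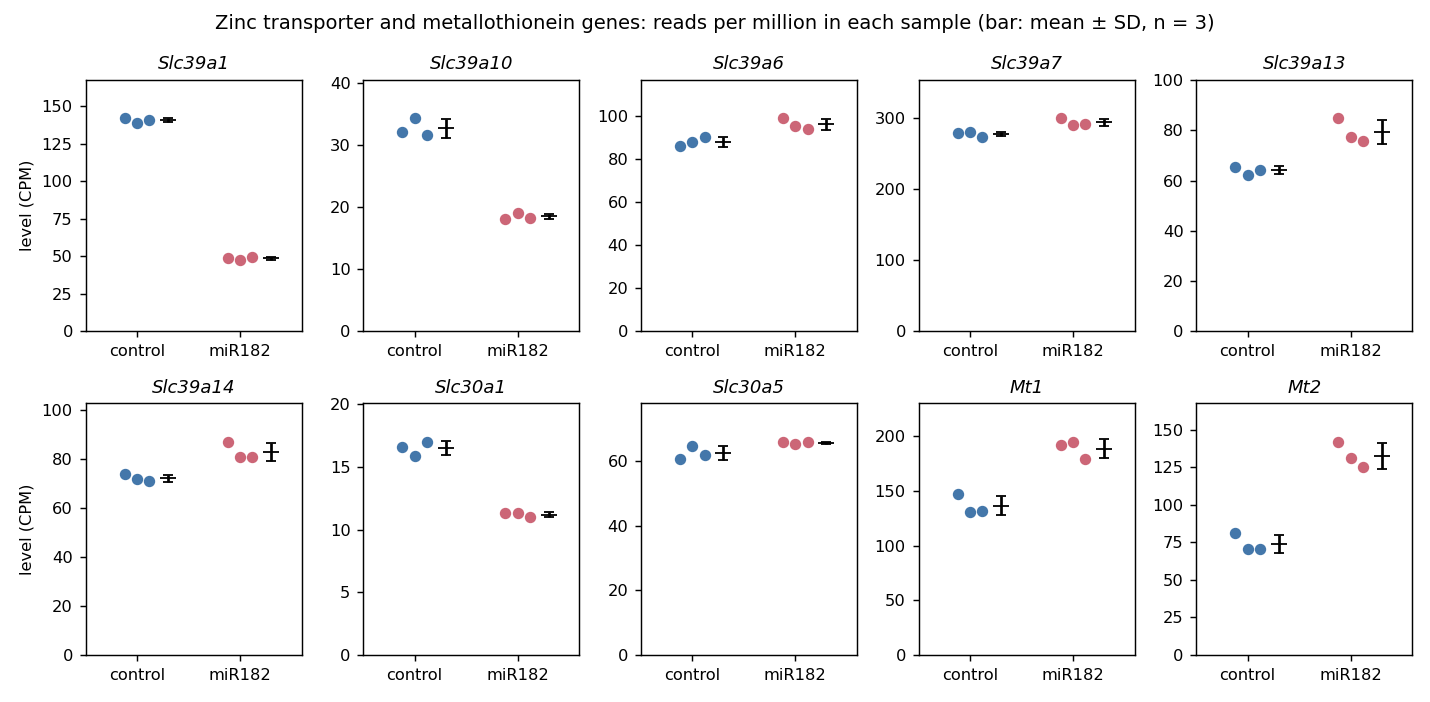
Each panel shows 1 gene, with its level in CPM from 0 on the y axis, 1 point per sample (3 control, 3 miR182) and a bar for the mean ± SD. Slc39a1, Slc39a10 and Slc30a1 sit lower with miR182, Mt1 and Mt2 sit higher, and the other 5 genes differ by 1.24-fold or less.

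Slc39a10 encodes ZIP10, another plasma membrane importer, whose transcription is held down by MTF1 when zinc is plentiful. It was at 32.1, 34.3 and 31.5 CPM in control samples and at 18.1, 19 and 18.3 CPM with miR182. The highest miR182 sample lay 12.5 CPM below the lowest control sample, and the log2 fold change was -0.82 (SE 0.055), 56.6% of control. The 3′-UTR of Slc39a10, 2409 bases on chromosome 1 (gene at 46807544 to 46892852, minus strand), has none of the miR-182-5p matches searched, although it holds 1 full match to miR-96-5p.

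Slc39a6 encodes ZIP6, a close relative of ZIP10, with which it can form a joint channel. Unlike Slc39a10 it was slightly higher with miR182, at 85.8, 87.6 and 90.2 CPM in control samples against 98.9, 95.2 and 94 CPM. The log2 fold change was 0.13 (SE 0.034), so this pair differed between the groups in opposite directions. The gap between groups was 3.82 CPM, beside SDs of 2.19 and 2.53 CPM. The gene lies on chromosome 18 (24579881 to 24603817, minus strand).

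Slc39a7 encodes ZIP7, which releases zinc from the endoplasmic reticulum. It had the most reads of the ZIP genes, 279, 280 and 274 CPM in control samples and 300, 290 and 292 CPM with miR182. The gene lies on chromosome 17 (34028269 to 34031682, minus strand). Its log2 fold change was small, 0.08 (SE 0.028), and it no longer passed the adjusted p without control sample 3 or without miR182 sample 1. Of its 2584 exon bases, 2084 are also annotated to Gm20427 on the same strand, which the files do not list, so its reads cannot be divided between these genes.

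Slc39a13 encodes ZIP13, which moves zinc out of vesicles and the Golgi and is needed for normal connective tissue. Control samples were at 65.6, 62.3 and 64.4 CPM and miR182 samples at 84.9, 77.4 and 75.8 CPM. All miR182 samples were above all control samples, by 10.2 CPM at the nearest, and the log2 fold change was 0.31 (SE 0.045). Of its 4869 exon bases, 215 lie opposite Psmc3, which had 3513 to 4057 reads per sample. The libraries keep the strand, but whether counting used it is not given in the sources used here.

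Slc39a14 encodes ZIP14, a carrier of zinc, iron and manganese that inflammation and cell stress raise. It was at 73.8, 72 and 71 CPM in control samples and at 87.1, 80.8 and 80.9 CPM with miR182, a log2 fold change of 0.20 (SE 0.038). Sample 1 stood above the others of the miR182 group here, as in 6 of the 10 members: Slc39a6, Slc39a7, Slc39a13, Slc39a14, Slc30a5 and Mt2. Without it the log2 fold change was 0.16 for Slc39a14, 0.26 for Slc39a13 and 0.79 for Mt2.

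Slc39a1 made up 16.7%, 16.4% and 16.8% of all reads on the 14 ZIP genes in control samples and 6.19%, 6.18% and 6.42% with miR182. The summed level of the 14 genes was 847 ± 4.62 CPM (SD, n = 3) in control and 775 ± 14.3 CPM with miR182. Without Slc39a1 the sum was 706 ± 4.56 CPM in control and 726 ± 13.9 CPM with miR182, so the sum was lower only with Slc39a1 in it. The number of Slc39a1 reads per Slc39a7 read was 0.508 ± 0.00991 in control and 0.165 ± 0.00327 with miR182, and per Slc39a10 read it was 4.33 ± 0.233 and 2.63 ± 0.115.

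Between genes, levels were compared per kilobase of transcript (CPM per kb). The length was that of the longest transcript tagged in the annotation as holding a consensus coding sequence. For Mt1 this was 549 bases, whereas its longest annotated 3′-UTR alone, from another form, has 901 bases. Its level per kb, and so its place in the order, thus depends on the form used. In control samples the order of the members (mean ± SD, n = 3) was Mt1 (249 ± 16.4), Mt2 (145 ± 12), Slc39a7 (120 ± 1.52), Slc39a1 (59.6 ± 0.599), Slc39a13 (26 ± 0.68), Slc39a6 (22.6 ± 0.564), Slc30a5 (19.7 ± 0.677), Slc39a14 (14.7 ± 0.287), Slc39a10 (5.93 ± 0.272) and Slc30a1 (3.15 ± 0.104). None of these 10 overlapped its neighbour among the members, although Slc39a14 overlapped Slc39a3, a family gene outside them. With miR182, Slc39a1 fell from rank 4 to rank 7 of the 20 family genes tested, at 20.5 ± 0.44 CPM per kb, where its samples overlapped those of Slc30a5 (20.7 ± 0.107). The other 9 members kept their order relative to each other. The transcripts used in these cultures were not measured, so the lengths are those of the annotation.

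**Figure D3:**
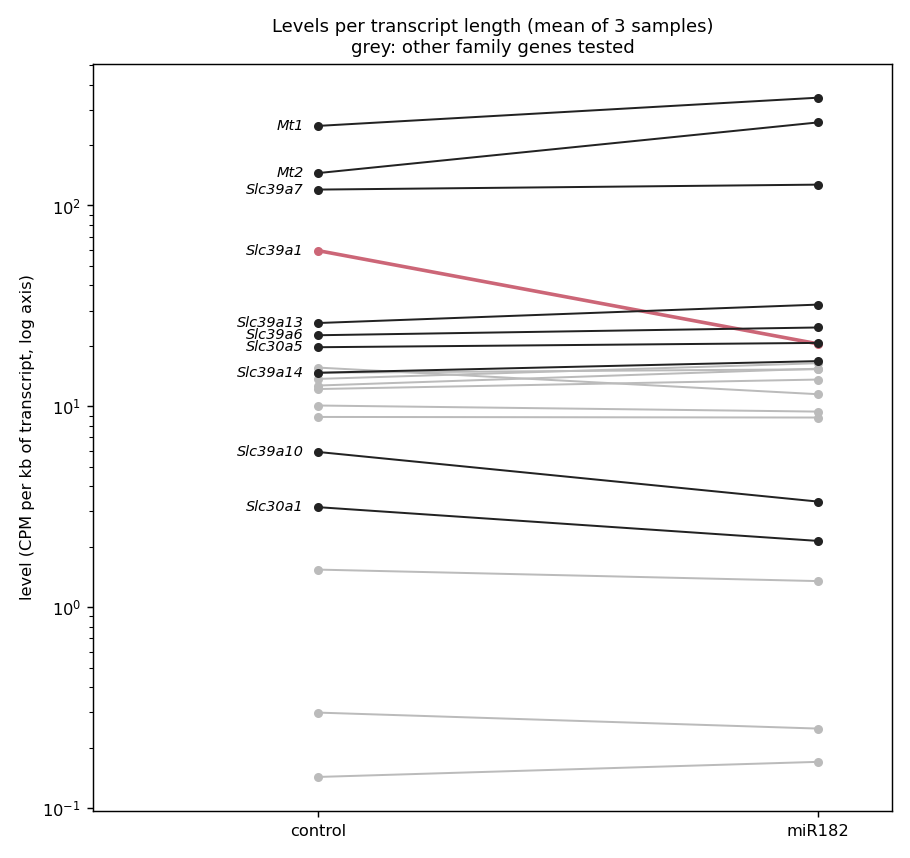
The y axis gives the mean level of 3 samples in CPM per kb of transcript on a log axis, with control at left and miR182 at right, and 1 line per family gene tested. Slc39a1 (red) crosses Slc39a13, Slc39a6 and Slc30a5 on its way from 59.6 to 20.5, while Mt1 and Mt2 stay on top.

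Slc30a1 encodes ZnT1, the exporter that carries zinc out of the cell, and is itself induced by MTF1. It was at 16.6, 15.9 and 17 CPM in control samples and at 11.3, 11.3 and 11 CPM with miR182. The groups were 4.58 CPM apart with SDs of 0.545 and 0.174 CPM, and the log2 fold change was -0.56 (SE 0.064), just short of the 0.585 that corresponds to 1.5-fold. With 299 to 444 reads per sample it was the least covered member. Of its 5244 exon bases, 468 lie opposite the antisense gene 1700034H15Rik, which had 11 to 25 reads per sample.

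Slc30a5 encodes ZnT5, which loads zinc into the secretory pathway together with ZnT6. Its levels were 60.7, 64.9 and 62 CPM in control samples and 66.1, 65.5 and 65.9 CPM with miR182. The gene lies on chromosome 13 (100802648 to 100833427, minus strand). The nearest samples of the groups were 0.573 CPM apart, less than the control SD of 2.15 CPM, and the log2 fold change was 0.07 (SE 0.038). Its partner Slc30a6 was also close between groups (21.6 ± 0.694 and 20.2 ± 1.19 CPM, log2 fold change -0.10, adjusted p = 0.211 from edgeR). The summed level of the 10 ZnT genes was 328 ± 7.98 CPM in control and 354 ± 2.76 CPM with miR182.

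Mt1 and Mt2 encode the metallothioneins that most mouse tissues make, and lie next to each other on the plus strand of chromosome 8 (94179082 to 94180327 and 94172664 to 94173568). Mt1 was at 147, 131 and 132 CPM in control samples and at 192, 195 and 179 CPM with miR182, a log2 fold change of 0.47 (SE 0.044). Mt2 was at 81.1, 70.5 and 70.5 CPM and at 142, 131 and 125 CPM, a log2 fold change of 0.84 (SE 0.055). Both genes were higher in every miR182 sample than in any control sample, by 32.2 and 43.8 CPM at the nearest, and Mt2 differed more.

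The number of Mt2 reads per Mt1 read was 0.552, 0.539 and 0.534 in control samples and 0.739, 0.671 and 0.698 with miR182, so the pair did not rise in one ratio. Together they took 211 ± 15.2 CPM in control and 321 ± 15.5 CPM with miR182. Control sample 1 was the highest control sample for both genes. Of the 588 exon bases of Mt2, 432 lie opposite the antisense gene Gm45774, which the files do not list, and reads that aligned to more than 1 place were kept apart from genes, which can undercount genes with close copies. The other genes of the cluster, Mt3 and Mt4, had 0 reads in all 6 samples.

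MTF1 binds metal response elements, whose core reads TGCACNC or TGCGCNC on either strand. These letters were searched in RefSeq promoters of GRCm38.p6, from 250 bases before to 50 after the start, since Mt1, Mt2 and Slc30a1 are all genes that MTF1 induces. Mt2 held 4 cores, Mt1 held 3, Slc30a1 held 2, Slc39a13 and Slc30a5 held 1 each, and Slc39a1, Slc39a7 and Slc39a10 held 0, while Slc39a6 and Slc39a14 were not matched. Mt2, Mt1 and Slc30a1 each had 1 listed promoter, and cores outside its window were not searched. The counts thus depend on the start used and do not rank the genes. Of 32851 promoters, 25.7% held at least 1 core, 1.97% held 3 or more and 0.517% held 4 or more. Windows of 30 bases around the cores of Mt2, Mt1 and Slc30a1, all printed on the plus strand, are shown with the core in capitals and its place relative to the RefSeq start.
Mt2 at -223, chr8:94172383-94172412: cagcatcgcctcTGCACCCggcccctcggg
Mt2 at -128, chr8:94172478-94172507: tcgcagacccttTGCGCTCagctcctttgc
Mt2 at -50, chr8:94172556-94172585: tggggggagggcGTGTGCAggctctgtccc
Mt2 at 4, chr8:94172610-94172639: agaattcgggtcGTGCGCAggcccaggggc
Mt1 at -23, chr8:94179054-94179083: gcggtcccgctgTGCACACtggcgctccag
Mt1 at 2, chr8:94179079-94179108: tccagggagctcTGCACTCcgcccgaaaag
Mt1 at 20, chr8:94179097-94179126: ccgcccgaaaagTGCGCTCggctctgccaa
Slc30a1 at -43, chr1:191906726-191906755: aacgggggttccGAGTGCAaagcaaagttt
Slc30a1 at 30, chr1:191906799-191906828: cgcctccgggccGAGCGCAgtcgccgcgga
Cores that begin with G are matches of the opposite strand. Slc30a4, outside the 10, also held 3 cores and was higher with miR182 (log2 fold change 0.28), while Slc30a1 with 2 was lower. Slc39a13 with 1 core and Slc30a9 with 0 were higher too (0.31 and 0.26), and Slc39a1 and Slc39a10 with 0 were lower. Whether any core acted on these genes was not tested.

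The ZIP, ZnT and metallothionein families hold 18 further genes, of which 10 had enough reads to be tested. Of these, 0 passed both cutoffs, beside 1.97% of all genes tested higher and 5.48% lower. By the adjusted p of the edgeR test alone, 3 were higher and 1 lower, beside 23.2% and 23.5% of all genes. These 4 are also the number with an unadjusted p under 0.05, and DESeq2 and limma-voom likewise put 0 past both cutoffs. Both counts are near the shares over all genes, so nothing particular to these relatives is read from them. Slc39a9, which encodes a Golgi ZIP, was lower, from 81 ± 0.996 to 59.8 ± 1.37 CPM (SD, n = 3 each; log2 fold change -0.44, SE 0.035, adjusted p = 2.06e-07). Its site, at 1565 bases from the stop codon, read ttcttccatgtTTGCCAAAatctgaataaa (chr12:80681270-80681277, plus strand, for the match). Of its 10155 exon bases, 459 lie opposite Erh, listed at 16 to 39 reads.

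Slc30a4, which encodes a vesicular ZnT, was higher, from 69.1 ± 3.7 to 84 ± 2.19 CPM (log2 fold change 0.28, SE 0.041, adjusted p = 6.93e-05). Slc30a9 was higher as well, from 78.1 ± 1.37 to 93.6 ± 0.885 CPM (log2 fold change 0.26, SE 0.032, adjusted p = 1.17e-05), and its 3′-UTR holds the 8-base match at 3512 bases from the stop codon. Slc39a11 rose by less, 0.16 on the log2 scale (SE 0.045, adjusted p = 0.0113). The other 6, Slc39a2, Slc39a3, Slc39a5, Slc39a8, Slc30a6 and Slc30a7, did not pass, with log2 fold changes from -0.27 to 0.23. Slc39a2 and Slc39a5 had 7 to 15 and 12 to 18 reads, so that differences of their size were not detectable at this depth. Slc39a12, Slc30a3 and Slc30a8 had 0 reads in all samples, and Slc39a4, Slc30a2 and Slc30a10 had at most 3, 1 and 1.

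**Figure D4:**
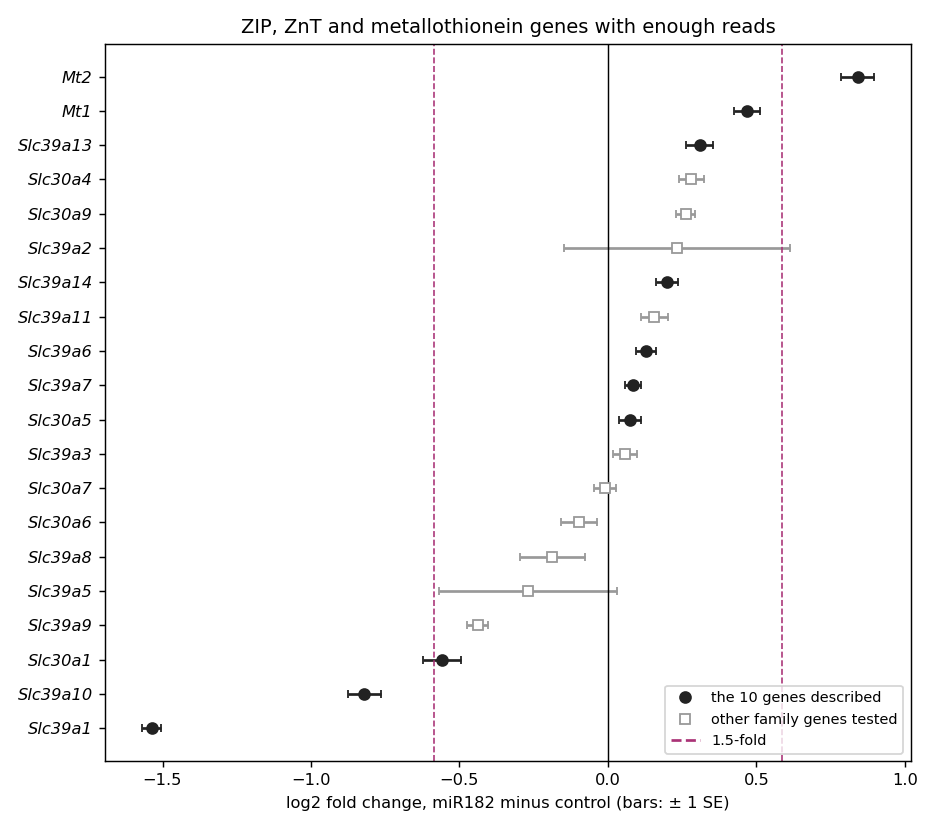
The x axis gives the log2 fold change (miR182 minus control) of the 20 family genes tested, with bars of ± 1 SE, filled circles for the 10 members, open squares for the other 10, and dashed lines at 1.5-fold. Slc39a1 (-1.54) stands apart from the next, Slc39a10 (-0.82), Mt2 (0.84) is at the other end, and 16 of the 20 genes lie between -0.5 and 0.5.

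The next list held Mtf1, which encodes the zinc sensor itself, and genes that respond to zinc or to MTF1. Other than zinc transporters and metallothioneins, the latter were Gclc, Sepw1, Ndrg1, Csrp1, Slc40a1 and Pgf. Of 6 tested, 5 were higher by the adjusted p, Mtf1 among them, 0 were lower and Sepw1 did not pass. Of all genes tested, 23.2% were higher and 23.5% lower. The median log2 fold change was 0.30 beside -0.00 over all genes. As this list was chosen with earlier results of these data known, its counts are a description. The number higher was 4 or 5 over the alternatives tried, Csrp1 passing in 8 of 13. Slc40a1, which encodes the iron exporter ferroportin and is also regulated by iron and heme, was the gene of this list past both cutoffs, rising from 20.4 ± 1.64 to 35.8 ± 3.17 CPM (log2 fold change 0.81, SE 0.073, adjusted p = 6.78e-07 from edgeR). Mtf1 itself rose from 27.7 ± 1.41 to 36.4 ± 1.94 CPM (log2 fold change 0.40, SE 0.056, adjusted p = 5.13e-05). Pgf, at 3 to 9 reads, was not tested. Mt1, Mt2 and 5 genes of this list, Mtf1 included, were thus higher, whereas Slc30a1 was lower.

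Metallothioneins also respond to oxidative stress and to glucocorticoids, so these lists were set beside them. Of 6 oxidative stress genes, 5 were higher by the adjusted p and 0 were lower, beside 23.2% and 23.5% of all genes tested. The median log2 fold change was 0.22, and the number higher was 4 or 5 over the alternatives. Slc7a11, which imports cystine for glutathione synthesis, passed both cutoffs (22.2 ± 0.443 to 41 ± 2.2 CPM, log2 fold change 0.88, SE 0.054, adjusted p = 1.28e-08 from edgeR). The 7 glucocorticoid-responsive genes were divided, 3 higher and 3 lower, with 0 past both cutoffs and a median of 0.10. Tsc22d3, the glucocorticoid-induced leucine zipper, fell by 0.57 on the log2 scale (SE 0.044, adjusted p = 1.61e-07) and Sgk1, a kinase, rose by 0.35 (SE 0.039, adjusted p = 5.59e-06). Both of these lists and the zinc list hold genes that were higher, as Mt1 and Mt2 were. The lists were chosen with earlier results of these data known, so their counts are a description. Whether any of these inputs acted on Mt1 and Mt2 was not tested.

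Zinc is loaded into secreted and surface enzymes by ZnT5 and its partners, and 4 such enzymes were examined. Alpl, the tissue-nonspecific alkaline phosphatase, fell from 22 ± 0.878 to 11.6 ± 0.815 CPM (log2 fold change -0.93, SE 0.067, adjusted p = 8.14e-08). Nt5e, the ectonucleotidase CD73, and Enpp1, a pyrophosphatase, fell by 0.79 and 0.76 on the log2 scale (adjusted p = 3.9e-07 and 0.000362). Enpp2, the lysophospholipase autotaxin, was higher by 0.21 (SE 0.036, adjusted p = 0.000303), with more reads than the other 3 together. Of the 4 enzymes, 3 passed both cutoffs lower and 0 higher, beside 5.48% and 1.97% of all genes tested. As this list too was chosen with earlier results of these data known, its values are a description. These are mRNA levels, and the zinc content of the enzymes was not measured.

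Of 13 genes that handle copper, iron or other divalent metals, 4 were higher (2 with DESeq2, which gave Atp7b no adjusted p) and 3 lower by the adjusted p. Of all genes tested, 23.2% were higher and 23.5% lower. The median of the list was -0.00, the same as all genes. Atp7b, a copper exporter, passed both cutoffs (log2 fold change 2.23, SE 0.4, adjusted p = 0.000408), but on only 2 to 19 reads per sample.

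**Figure D5:**
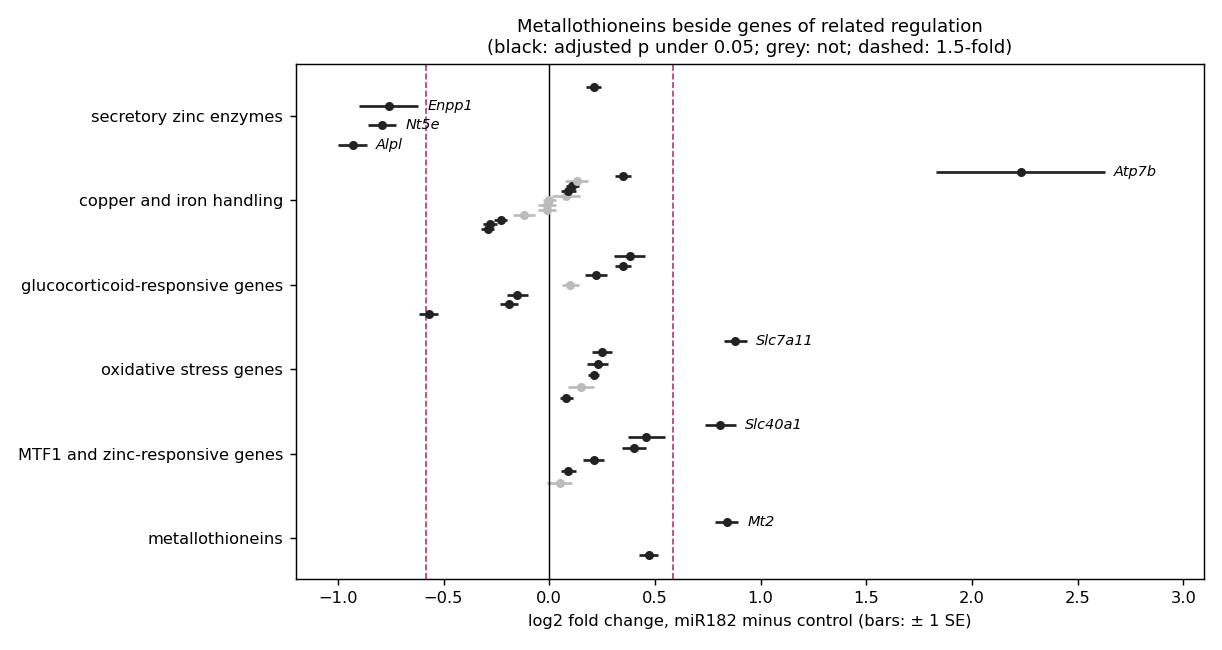
Each point is the log2 fold change (miR182 minus control, ± 1 SE) of a tested gene of the list named at left, black where the adjusted p was under 0.05, with dashed lines at 1.5-fold and names for genes past both cutoffs. The metallothioneins, the 6 oxidative stress genes, and Mtf1 with the zinc-responsive genes other than Sepw1 (0.05, SE 0.059) lie on the higher side of 0. The copper and iron and glucocorticoid lists lie on both sides.

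The genes whose log2 CPM over the 6 samples was most like that of Slc39a1 were Cmtm3, Ctdsp1 and Ywhag (Pearson r of 0.9997, 0.9996 and 0.9996). As the samples form 2 groups, such values mostly record that a gene differed between the groups with little spread within them. Their log2 fold changes were -0.53, -1.23 and -0.79, so Slc39a1 fell by more than each.

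Reads on genes ranged from 25869810 to 28796712 per sample, and the first principal component (65.1% of the variance) separated the groups. The defining markers of adipocytes were present, with a summed level over 10 genes of 13568 to 14379 CPM in control samples and 9304 to 10533 with miR182. By the adjusted p, 8 of the 10 were lower, beside 23.5% of all genes tested lower and 23.2% higher. Stromal and fibroblast markers were also abundant (41087 to 42914 and 36144 to 37354 CPM, 6 of 9 tested lower and 1 higher), but most of that sum was Col1a1 and Col3a1, and the progenitor markers Dpp4 and Pi16 had 2 to 6 and 33 to 75 reads per sample. Macrophage markers were low (12.8 to 14.4 and 11.7 to 14.5 CPM). Of those tested, Lyz2 was lower (1.24 ± 0.115 and 0.795 ± 0.145 CPM, on 18 to 34 reads), and Cd68 and Csf1r did not pass. Endothelial markers were low as well (8.13 to 9.27 and 5.09 to 5.74 CPM). Tek alone was lower among them (6.05 ± 0.608 and 2.43 ± 0.247 CPM), and Kdr and Cdh5 did not pass. These shifts moved with the groups, and their part in the levels of the zinc genes was not tested. In such bulk RNA, fewer cells of a type and less RNA per cell cannot be told apart. With 3 samples a group, the smallest two-sided p of an exact permutation test of a single gene is 0.1, so no such test was used.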

How the data were processed

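Poly(A) RNA of 3 control and 3 miR182 cultures was sequenced with strand-specific libraries. Raw counts of reads, 1 list of gene symbols per sample, were deposited by the authors without normalization. The submitters' processing notes name bcl2fastq, TopHat2, HTSeq and mm9, with no strand setting. In each list, tally rows that name no gene were left out of library sizes and tests; reads outside genes were 12.7% to 13% and ambiguous reads 0.652% to 0.667% of uniquely aligned reads.

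Counts were tested with edgeR 4.0.16 in R 4.3.3 (TMM, filterByExpr with a minimum count of 10, quasi-likelihood test, two-sided, no block), with Benjamini-Hochberg adjustment over 13117 genes. The fits were tested on simulated data. Both cutoffs mean an adjusted p under 0.05 and 1.5-fold. A pseudocount of 0.1 CPM was added for log2 CPM in correlations. The members, gene lists and tests were chosen with earlier results of these data known. Named were all members, all other ZIP, ZnT and metallothionein genes, genes past both cutoffs in 5 related lists (otherwise at most 2 with the smallest p), and the 3 genes most like Slc39a1; Mtf1, Sepw1, Pgf and the remaining zinc-responsive genes, Enpp2 and overlapping genes were named outside this rule, after their values were seen.

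Positions and 3′-UTRs (the longest per gene) come from GENCODE M21 on GRCm38, which is not the build of the counts and matched 12961 of the tested genes; miRNAs and promoters come from RefSeq. Alternatives were DESeq2 1.42.0, limma-voom 3.58.1, other size factors, filters and fold cutoffs, a replicate block, and leaving out each sample. Protein sequences were not used here.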

Additional observations from a re-analysis of the deposited data

How the results depend on the processing

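The log2 fold changes of the 10 members kept their direction, and the joint call by both cutoffs, in 130 of 130 alternative values, although the adjusted p of Slc39a7 alone passed in 11 of 13. These alternatives reuse the samples that chose the members, so such agreement is a description. For genes outside both cutoffs, the call held by staying outside. Over 37 genes with alternative values, the members included, the direction and joint call held for 471 of 477. Without a fold cutoff, 6124 of all genes, 9 members and 4 other zinc family genes passed, and with a 2-fold cutoff 280 of all genes and 1 member, Slc39a1. The direction was not stable for Slc39a2, whose log2 fold change ran from -0.040 to 0.50 when 1 sample was left out, for Slc30a7, from -0.047 to 0.018, or for Sepw1, from -0.028 to 0.124. Tsc22d3 passed both cutoffs without miR182 sample 1 (-0.601), and Ndrg1 without control sample 1 (0.586). Samples with the same replicate number showed no visible shared deviation, with correlations of -0.185, -0.0436 and -0.0785. These values cannot settle whether same-numbered samples were paired in the design. With the replicate block, 925 genes were called, 921 of them among the 977 of the fit without it, and 3 members and 0 other zinc family genes passed. The median log2 fold change of all genes stayed within 0.022 of 0 in every setting. Depth limits Slc39a2, Slc39a5 and Atp7b, which had 19 reads or fewer in every sample.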
